A study of Oryza sativa with 8 samples.

Results

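Heat stress factors and heat shock proteins were followed in leaves of rice seedlings under drought. Genes were taken as members when their symbol or synonym, with or without an Os prefix, began with HSF (heat stress transcription factor), HSP (heat shock protein) or CLPB (caseinolytic protease B, the disaggregase also called HSP100). This rule took 51 genes of the gene tables, and 45 of them had a probe set of their own on the array, out of 17905 genes with one. The 45 genes held 66 of the 57194 probe sets tested. They were 20 genes of heat stress factors, 19 of small heat shock proteins, 3 of HSP90 and 3 of HSP100. No HSP70 gene met the rule. The rule reads names and no measured values, but it was chosen with earlier results of these data known. The 6 genes without a probe set of their own were HSFA6A, HSFB4C, HSFC2B, HSP16.9C, HSP18.9 and HSP19.0, and 2 further probe sets shared by HSP81-2, HSP81-3 and another gene were left out.

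The arrays were Affymetrix rice GeneChips, 8 in all, in 4 groups of 2. The groups were OsGRAS23 overexpression (OE) leaves under drought, OE leaves under normal conditions, wild-type (WT) leaves under drought, and WT leaves under normal conditions. OsGRAS23 belongs to the GRAS family of plant transcription regulators. All plants were japonica Zhonghua11 seedlings, 21 days old, raised in culture solution with 16 h of light at 28 °C and 8 h of dark at 24 °C. Each array held leaf RNA of 20 pooled seedlings, and the 2 arrays of a group were labelled as biological replicates. Drought leaves came from seedlings laid on filter paper and were collected when WT leaves began to roll, whereas normal leaves were collected before that treatment. No array held seedlings handled in this way but kept wet, so drought, handling and elapsed time cannot be told apart. No heat treatment was labelled. The promoter of the transgene and the number of OE lines behind these arrays are not given in the sources used here, and no probe set could be matched to OsGRAS23 by name, so the overexpression itself was not checked.

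Heat stress factors bind heat shock elements in promoters and switch on genes of chaperones. Plants hold 3 classes of them: class A factors carry activator motifs, whereas class B and class C factors lack these motifs and many class B members act as repressors. Small heat shock proteins hold unfolding proteins in a state from which they can be refolded, HSP90 matures client proteins such as kinases and receptors, and HSP100 pulls proteins out of aggregates. In rice and other plants these genes are best known from heat, and many of them also respond to water deficit and oxidative stress.

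Values are log2 expression per probe set, so a difference of 1 is 2-fold. Array medians lay between 4.80 and 4.90, and replicate arrays correlated at 0.987 to 0.991 across probe sets, which are not independent replicates. The brightest probe set, by its mean over the 8 arrays, stood for each gene. This mean includes the drought arrays, so a probe set that rises under drought could be chosen because of its rise. A gene was called when its change in limma had an adjusted p under 0.05 (Benjamini-Hochberg over all tested probe sets) and was at least 2-fold. With 2 arrays against 2, an exact permutation test cannot give a two-sided p below 0.333, so each call rests on the spread that limma shares across groups and probe sets. Leaf marker genes were bright, with mean log2 values over 6 markers of 11.04 to 11.42 on OE drought arrays, 11.71 to 11.76 on OE normal arrays, 11.20 to 11.37 on WT drought arrays and 11.84 to 11.92 on WT normal arrays. One of the 6, RBCS1, stayed at 3.22 to 3.66 on the 8 arrays. RCABP69, which encodes a chlorophyll-binding protein, was called lower under drought (-1.04 in the OE line, -1.36 in WT). Of 4 root markers, the silicon transporter gene LSI1 was bright too, at 9.43 and 9.95 on OE drought arrays, 9.27 and 11.89 on OE normal arrays, 9.20 and 9.28 on WT drought arrays and 10.75 and 11.80 on WT normal arrays. The mean over the 4 root markers was 5.28 to 5.60 on OE drought arrays, 5.70 to 6.97 on OE normal arrays, 5.11 to 5.41 on WT drought arrays and 6.33 to 7.01 on WT normal arrays. The root marker means were thus dimmer on drought than on normal arrays within each line, LSI2 was called lower in WT (-2.90), and QHB and SHR1 did not exceed 4.64 on any array. Their part in the results on heat shock genes was not tested. The mean over 7 panicle and seed markers lay between 4.07 and 4.37 on all 8 arrays. In bulk leaf RNA, a change in the cells that express a gene and a change in RNA per cell cannot be told apart.

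A broad set of heat shock genes was higher after the drought treatment in both lines. In the OE line 18 of the 45 genes were called higher (1.6% of all probe sets were called higher in this comparison) and none was called lower (0.836% of all probe sets). In WT 19 of the 45 were called higher (2.17% of all probe sets) and HSFA3 was called lower (5.51% of all probe sets). The median change over the 45 genes was 0.88 in the OE line and 0.87 in WT on the log2 scale, against medians of 0.02 and 0.08 over all probe sets in the OE line and in WT. At an unadjusted p under 0.05, 28 genes of each line passed, where 17% of all probe sets did in the OE line and 35.9% in WT. The call was made in both lines for 16 genes, in the OE line alone for HSFA6B and HSFC2A, and in WT alone for HSFA3, HSFA9, HSFC1B and HSP17.7. The remaining 23 genes were called in neither line. Both drought arrays lay above both normal arrays for 31 of the 45 genes in the OE line (25.8% of all probe sets) and 30 in WT (36.7% of all probe sets), and below them for 2 in the OE line (25.1% of all probe sets) and 5 in WT (27.6% of all probe sets). Without OE normal replicate 1 the OE count was 11, all of them among the 18. Without OE drought replicate 2 it was 15, of which 14 were among the 18.

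**Figure D1:**
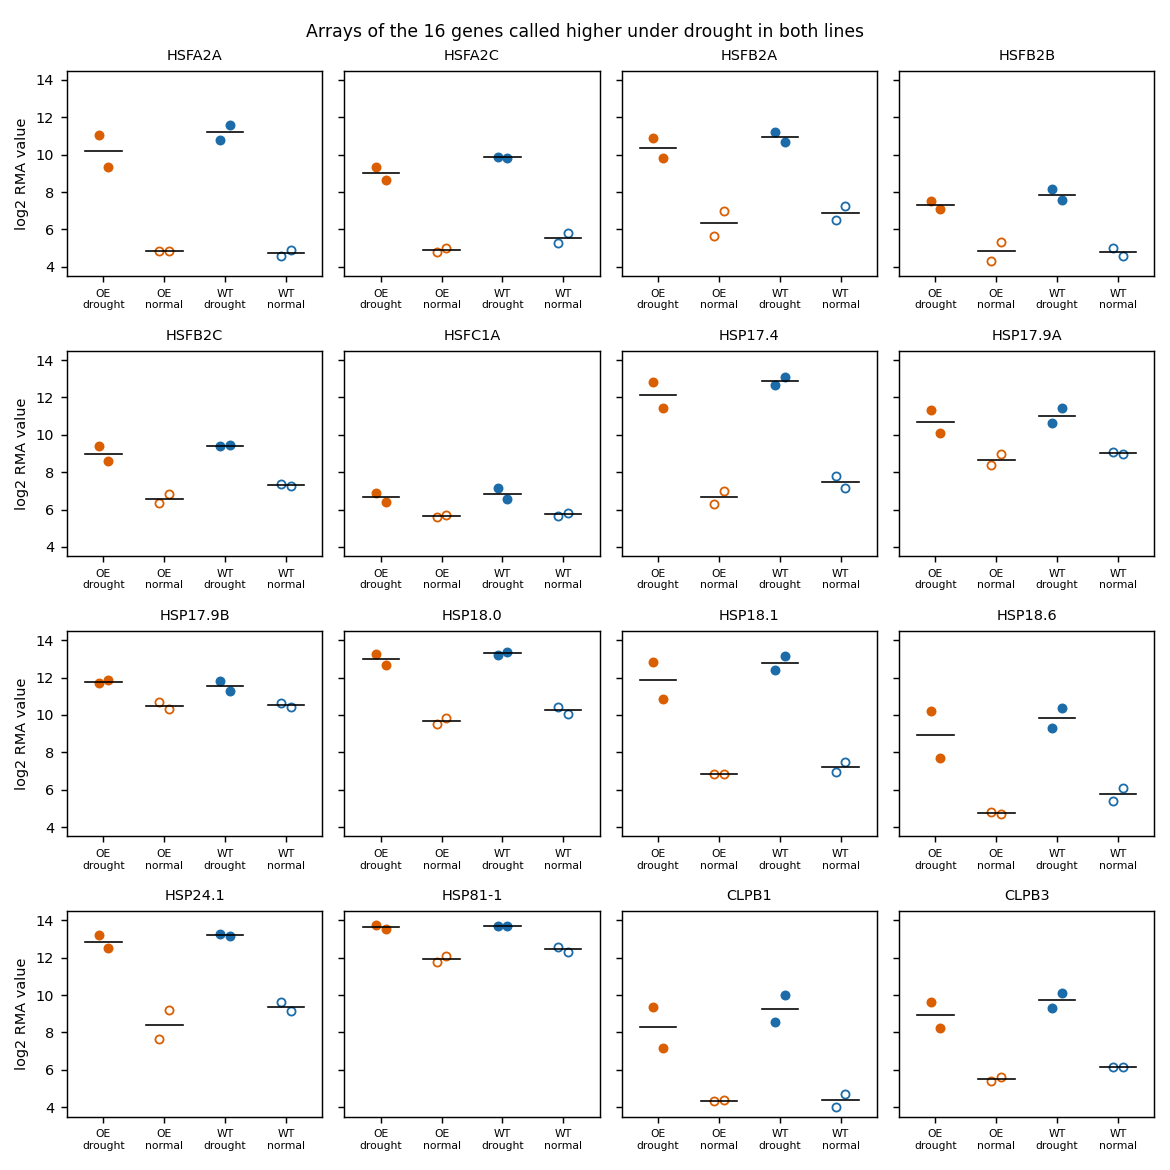
Log2 expression of the 16 genes called higher under drought in both lines. Each panel is a gene, each point an array (orange for OE and blue for WT, filled for drought and open for normal, replicate 1 left of replicate 2) and each line a group mean of 2 arrays. In all 16 panels every drought point lies above every normal point, and OE drought replicate 2 lies below replicate 1 in 15 of them.

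Read by their brightest probe sets, 3 of the 12 class A factors were called higher in each line. The shares of all probe sets called higher were 1.6% in the OE line and 2.17% in WT. HSFA3 was called lower in WT (5.51% of all probe sets). HSFA2A, a factor of the A2 group that in tomato and Arabidopsis keeps the heat response going once it has begun, was called higher on each of its 3 probe sets, of which the brightest is given here. Its log2 values were 11.05 and 9.33 on OE drought arrays against 4.87 and 4.87 on OE normal arrays, and 10.79 and 11.59 on WT drought arrays against 4.60 and 4.89 on WT normal arrays. The drought arrays lay far above the normal arrays of both lines, with the 2 OE drought arrays well apart from each other. The change was 5.32 in the OE line (SE 0.48, limma adjusted p = 0.00168) and 6.45 in WT (SE 0.48, adjusted p = 0.000436). The normal arrays lay at about the array medians, so no fold is given. HSFA2C, another A2 factor, had 9.34 and 8.65 on OE drought arrays against 4.80 and 5.02 on OE normal arrays, and 9.88 and 9.82 on WT drought arrays against 5.26 and 5.81 on WT normal arrays. Its adjusted p of 0.0003 in WT was the lowest of the 45 genes. The change was 4.09 in the OE line (SE 0.26, adjusted p = 0.000829) and 4.31 in WT (SE 0.26). These values are those of its brightest probe set. The other probe set of HSFA2C was called in neither line (0.88 in the OE line, 0.44 in WT).

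The other members of the A2 group were not called when read by their brightest probe sets. HSFA2B changed by 0.49 in the OE line and 0.01 in WT, HSFA2D by -0.04 and 0.05, and HSFA2E by 0.33 in each line. The other probe set of HSFA2D was called higher in both lines, by 3.85 in the OE line and 3.45 in WT. HSFA1, of the group that holds the master factor of the heat response in tomato, had values between 8.50 and 8.77 on all 8 arrays and changes of 0.00 in the OE line and 0.01 in WT. Beside HSFA2A and HSFA2C, the class A genes called higher on their brightest probe sets were HSFA6B in the OE line and HSFA9 in WT. HSFA6B had 5.63 and 5.82 on OE drought arrays against 4.13 and 4.56 on OE normal arrays, and 5.26 and 5.09 on WT drought arrays against 4.21 and 4.39 on WT normal arrays. It was called in the OE line (1.38, adjusted p = 0.00728), though not without OE normal replicate 1 or without OE drought replicate 2, whereas its WT change of 0.87 passed the p threshold and missed the 2-fold one. HSFA9, whose relatives in sunflower and Arabidopsis act in maturing seeds, showed the reverse, with a called change of 1.2 in WT and a change of 0.79 in the OE line that missed 2-fold.

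HSFA3 went the other way. In Arabidopsis HSFA3 acts below the drought factor DREB2A. The rice gene had 9.29 and 10.02 on OE drought arrays against 10.78 and 11.14 on OE normal arrays, and 9.0 and 9.60 on WT drought arrays against 11.16 and 10.09 on WT normal arrays. Drought arrays lay below normal arrays within each line. The change was -1.31 in the OE line (adjusted p = 0.105, not called) and -1.32 in WT (adjusted p = 0.0414), 2.5-fold lower in WT. The WT call was lost when WT normal replicate 1 was left out (-0.79, adjusted p = 0.142), and also without WT drought replicate 1 (-1.03, adjusted p = 0.195), WT drought replicate 2 (adjusted p = 0.0834) or either OE normal array (adjusted p = 0.0567).

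Some class B and class C factors were called higher as well. In class B, 3 of 5 genes were called higher in each line (1.6% of all probe sets in the OE line and 2.17% in WT), all of the B2 group. HSFB2A had 10.90 and 9.81 on OE drought arrays against 5.63 and 7.01 on OE normal arrays, and 11.20 and 10.70 on WT drought arrays against 6.51 and 7.28 on WT normal arrays. Its change was 4.04 in the OE line (SE 0.49, adjusted p = 0.00503) and 4.06 in WT (SE 0.49, adjusted p = 0.00201). The rise was thus about as large as that of HSFA2C, though the OE value hung on the normal arrays, at 3.35 without OE normal replicate 1 and 4.73 without OE normal replicate 2. HSFB2B changed by 2.49 in the OE line and 3.06 in WT, and HSFB2C by 2.40 and 2.11, with adjusted p between 0.00156 and 0.00739. The other probe set of HSFB2B was called in neither line (0.27 in the OE line, 0.43 in WT). In Arabidopsis, B2 factors repress heat shock genes outside of stress. HSFB1 changed by 0.93 in the OE line and 0.57 in WT and HSFB4B by -0.08 and 0.07, and neither was called.

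Among the 3 class C genes, HSFC1A was called higher in both lines at close to the threshold, by 1.02 in the OE line (adjusted p = 0.0495) and 1.11 in WT (adjusted p = 0.0143). The OE call was lost when any one array of the OE line or of WT normal was left out (adjusted p = 0.059 to 0.276), and the WT call when WT normal replicate 2 or WT drought replicate 1 was dropped. HSFC1B changed by 0.86 in the OE line, under 2-fold, and by 1.06 in WT, where it was called, but not without WT drought replicate 2. HSFC2A was the factor whose change differed most between the lines. It had 7.18 and 6.92 on OE drought arrays against 4.44 and 5.62 on OE normal arrays, and 6.26 and 5.69 on WT drought arrays against 5.14 and 6.10 on WT normal arrays. The OE drought arrays lay above the OE normal arrays, while the WT arrays overlapped. The change was 2.02 in the OE line (adjusted p = 0.0358) and 0.36 in WT (adjusted p = 0.563). The difference of 1.67 between these changes (SE 0.59) did not pass the test over all probe sets (adjusted p = 0.729), and the OE call was lost without OE normal replicate 1 (1.43, adjusted p = 0.208), without either OE drought array and without either WT drought array.

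**Figure D2:**
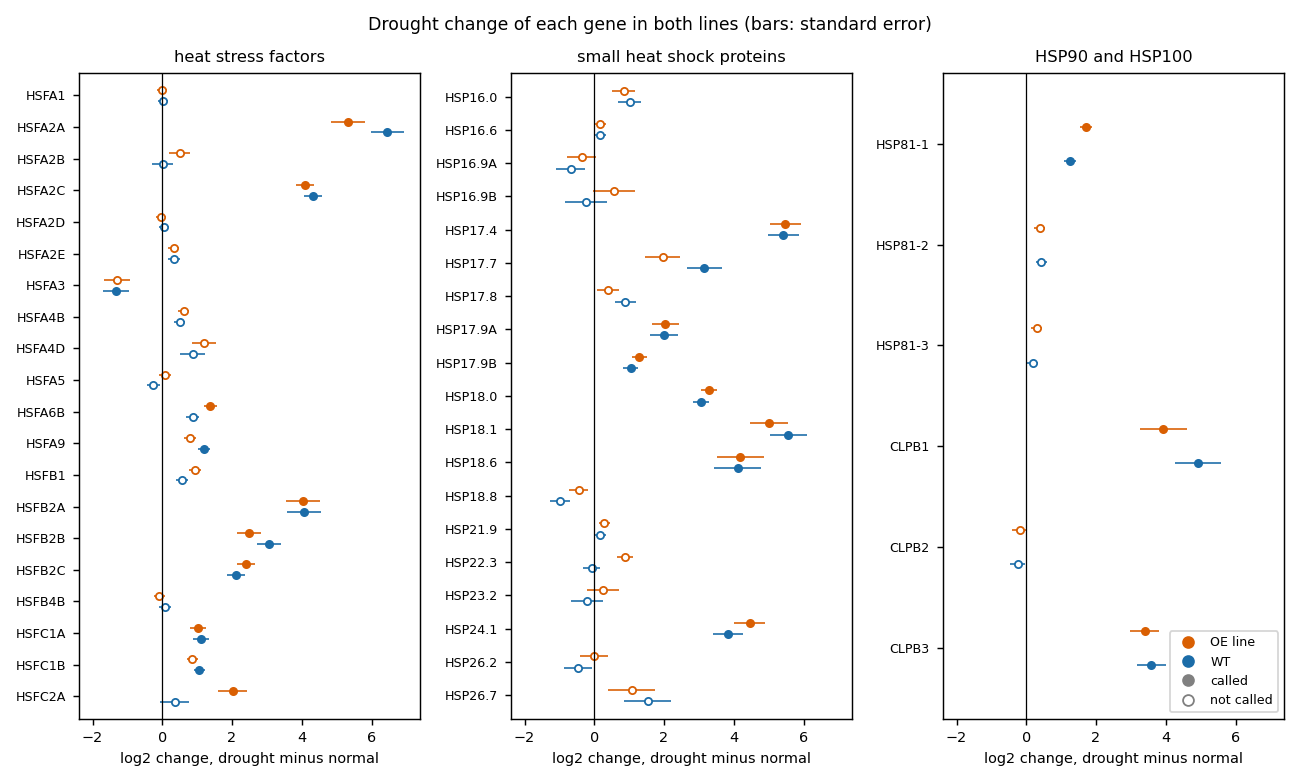
Drought change of each of the 45 genes, in 3 panels by subclass. The horizontal axis is the log2 change, drought minus normal, with bars of 1 standard error (orange for OE and blue for WT, filled where called). Changes run from -1.31 for HSFA3 to 5.47 for HSP17.4 in the OE line and from -1.32 for HSFA3 to 6.45 for HSFA2A in WT.

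Of 19 small heat shock proteins, 7 were called higher in the OE line (1.6% of all probe sets) and 8 in WT (2.17% of all probe sets), the eighth being HSP17.7. None was called lower. The OE count was 4 without either OE normal array, and the WT count was 5 when WT drought replicate 2 was dropped. HSP17.4, a cytosolic class I protein, had 12.83 and 11.42 on OE drought arrays against 6.30 and 7.0 on OE normal arrays, and 12.68 and 13.12 on WT drought arrays against 7.82 and 7.13 on WT normal arrays. Every drought array was more than 3 log2 units above every normal array. The change was 5.47 in the OE line (SE 0.44, adjusted p = 0.00124) and 5.42 in WT (SE 0.44, adjusted p = 0.000639), or 44.4-fold and 42.9-fold. HSP18.1, of the same class, had 12.85 and 10.88 on OE drought arrays against 6.85 and 6.86 on OE normal arrays, and 12.38 and 13.17 on WT drought arrays against 6.96 and 7.47 on WT normal arrays. The 2 OE drought arrays stood well apart from each other, and both were above all normal arrays. Its change was 5.0 in the OE line (SE 0.54, adjusted p = 0.00326) and 5.56 in WT (SE 0.54, adjusted p = 0.00101).

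The other called small heat shock proteins included members of other classes and compartments. HSP24.1, a mitochondrial member, had 13.21 and 12.53 on OE drought arrays against 7.65 and 9.19 on OE normal arrays, and 13.28 and 13.16 on WT drought arrays against 9.62 and 9.16 on WT normal arrays, a change of 4.45 in the OE line (3.69 without OE normal replicate 1 and 5.22 without OE normal replicate 2) and 3.83 in WT. HSP18.0, a class II protein, had 13.27 and 12.68 on OE drought arrays against 9.54 and 9.85 on OE normal arrays, and 13.23 and 13.39 on WT drought arrays against 10.43 and 10.08 on WT normal arrays, a change of 3.28 in the OE line and 3.06 in WT on its brightest probe set. Its other 2 probe sets had changes below 0 in both lines, and the median over its probe sets gave -0.18 in the OE line and -0.38 in WT. HSP18.6, a class III protein, had 10.20 and 7.70 on OE drought arrays against 4.81 and 4.72 on OE normal arrays, and 9.32 and 10.39 on WT drought arrays against 5.41 and 6.09 on WT normal arrays. Its OE drought arrays lay further apart than those of any other called gene, and its change was 4.19 in the OE line (SE 0.68, adjusted p = 0.0149) and 4.11 in WT (SE 0.68, adjusted p = 0.00632). The OE change of HSP18.6 was 2.94 without OE drought replicate 1 and 5.44 without OE drought replicate 2, its OE call was lost without either OE normal array, and its WT call was lost when WT drought replicate 2 was dropped. HSP17.9A rose by 2.04 in the OE line and 1.99 in WT and HSP17.9B by 1.28 and 1.04. In WT both calls were lost without WT normal replicate 2. That of HSP17.9A was also lost when WT drought replicate 2 was dropped, and that of HSP17.9B when replicate 1 was. In the OE line both were lost without either OE normal array and without OE drought replicate 1, and that of HSP17.9B also without OE drought replicate 2. HSP17.7 had 11.17 and 9.31 on OE drought arrays against 8.36 and 8.21 on OE normal arrays, and 10.75 and 11.63 on WT drought arrays against 8.10 and 7.98 on WT normal arrays. Drought arrays were above normal arrays in each line, and the change was called in WT (3.15, adjusted p = 0.00585; adjusted p = 0.051 without WT drought replicate 2) but not in the OE line (1.96, adjusted p = 0.0783). The difference between the lines was -1.2 and did not pass the test either.

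The calls of neighbouring genes differed between a group on chromosome 3 and a run on chromosome 1. In the RefSeq gene order of chromosome 3, HSP17.4, HSP18.1 and HSP17.7 stand side by side and HSP17.9A lies near them with 4 genes between. All 4 were called higher in WT (2.17% of all probe sets), and 3 of them in the OE line (1.6% of all probe sets). HSP17.7 changed by 1.96 in the OE line, not called. In a run on chromosome 1, HSP16.6, HSP17.9B, HSP16.9C, HSP16.9A and HSP16.9B stand side by side, and among the 4 of these with a probe set HSP17.9B alone was called. HSP16.6 had values of 3.65 to 4.15 on all 8 arrays, near the dim end of the array. HSP16.9B lay between 3.48 and 5.47, with WT normal replicate 2 the highest of the 8, and HSP16.9A between 4.35 and 5.97. Sequences of neighbouring small heat shock proteins are much alike, so a probe set given to one gene may also read another.

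The 11 small heat shock proteins called in neither line changed by between -0.45 and 1.07 in the OE line and between -0.99 and 1.53 in WT. HSP18.8 had 9.36 and 9.13 on OE drought arrays against 9.77 and 9.62 on OE normal arrays, and 9.50 and 8.51 on WT drought arrays against 9.92 and 10.07 on WT normal arrays. Its WT change of -0.99 had an adjusted p of 0.0418 and missed 2-fold by a small margin. HSP26.7, a chloroplast member, had 5.46 and 3.07 on OE drought arrays against 3.15 and 3.24 on OE normal arrays, and 4.28 and 5.74 on WT drought arrays against 3.41 and 3.56 on WT normal arrays. One OE drought array was thus high and the other level with the normal arrays, and neither change was called (1.07 in the OE line, 1.53 in WT).

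Of the 3 HSP90 genes, which encode cytosolic chaperones, HSP81-1 was called higher in both lines (1.6% of all probe sets in the OE line and 2.17% in WT). It had 13.77 and 13.52 on OE drought arrays against 11.80 and 12.07 on OE normal arrays, and 13.70 and 13.68 on WT drought arrays against 12.56 and 12.33 on WT normal arrays. Its change was 1.71 in the OE line (SE 0.17, adjusted p = 0.00255) and 1.24 in WT (SE 0.17, adjusted p = 0.00341). HSP81-2 and HSP81-3, which lie near each other on chromosome 9, were bright on every array and changed by 0.39 and 0.31 in the OE line and by 0.43 and 0.18 in WT, not called. On its brightest probe set HSP81-3 held between 13.66 and 14.17 on all 8 arrays.

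Of the 3 disaggregase genes, the cytosolic CLPB1 (also HSP101) and the mitochondrial CLPB3 were called higher in both lines, and the chloroplast CLPB2 was not. The shares of all probe sets called higher were 1.6% in the OE line and 2.17% in WT. CLPB1 had 9.39 and 7.17 on OE drought arrays against 4.32 and 4.39 on OE normal arrays, and 8.54 and 10.02 on WT drought arrays against 4.03 and 4.70 on WT normal arrays. The drought arrays of each line differed from each other by more than 1 log2 unit, and every one was above every normal array. Its change was 3.93 in the OE line (SE 0.67, adjusted p = 0.0177) and 4.92 in WT (SE 0.67, adjusted p = 0.00304). The OE call was lost without either OE normal array (adjusted p = 0.112 and 0.0706), and the OE change was 2.82 without OE drought replicate 1 and 5.03 without OE drought replicate 2. The WT change was 5.66 when WT drought replicate 1 was dropped and 4.18 when replicate 2 was. CLPB3 had 9.62 and 8.22 on OE drought arrays against 5.42 and 5.62 on OE normal arrays, and 9.32 and 10.13 on WT drought arrays against 6.14 and 6.14 on WT normal arrays. This was a change of 3.40 in the OE line (SE 0.41, adjusted p = 0.00495) and 3.59 in WT (SE 0.41, adjusted p = 0.00172). CLPB2 stayed between 9.27 and 10.01 on all 8 arrays, with changes of -0.19 in the OE line and -0.25 in WT.

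Not all probe sets of a gene gave the same reading. Among the 45 genes, 14 had several probe sets, 21 beside the brightest. Of these 21, 7 (in 6 genes) had another call than the brightest in the OE line, and 9 (in 8 genes) in WT. HSP18.1 read alike on both of its probe sets (5.0 and 5.06 in the OE line, 5.56 and 5.55 in WT). The other probe sets of HSFA2A changed by 2.24 and 3.41 in the OE line and by 2.83 and 4.95 in WT. HSP18.0 disagreed in direction: its other probe sets changed by -0.36 and -0.18 in the OE line and by -0.91 and -0.38 in WT, none called. The other probe set of HSFB2B changed by 0.27 in the OE line and 0.43 in WT, and that of HSP81-1 by 0.04 and 0.11. For HSP18.6, 1 other probe set was called higher in both lines (2.62 in the OE line, 3.55 in WT). A further 1 was called in neither line (0.30 in the OE line, 0.59 in WT). For HSP81-3, 1 of 4 other probe sets was called higher in WT, at 1.12. Others changed by 0.97 and 0.69 in WT, with limma adjusted p of 0.0281 and 0.0422 but under 2-fold. In the same order the changes in the OE line were 0.88, 0.83 and 0.62, not called. The remaining probe set changed by -0.06 in WT and 0.15 in the OE line.

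**Figure D3:**
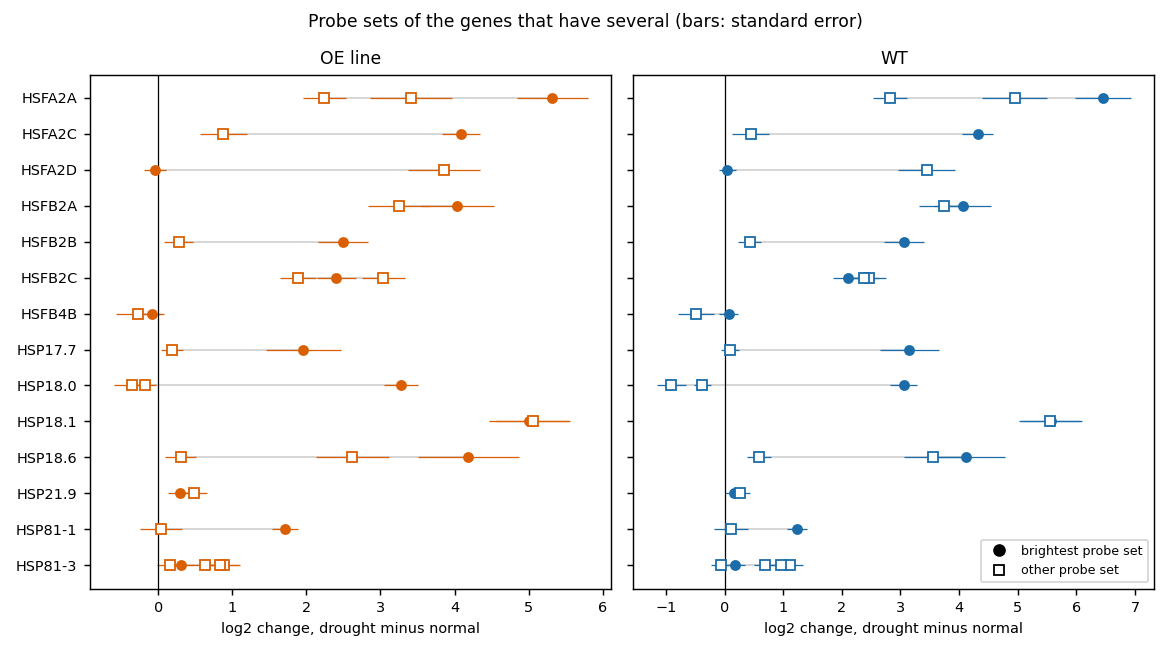
Drought change of every probe set of the 14 genes that had several, in the OE line (left) and in WT (right). The horizontal axis is the log2 change, drought minus normal, with bars of 1 standard error; filled circles are the brightest probe sets, which stand for the genes, and open squares the others. The marks of HSP18.1 coincide. HSFA2C, HSFA2D, HSFB2B, HSP17.7, HSP18.0, HSP18.6 and HSP81-1 each have a mark above 1 and another below 1 in both lines.

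Names set a further limit for the A2 group. The RefSeq entries of HSFA2C and HSFA2D also carry names of acireductone dioxygenase genes (ARD1 and ARD2), so each entry joins names of a heat stress factor and of a metabolic enzyme. For HSFA2C the brightest probe set rose and the other changed by 0.88 in the OE line and 0.44 in WT, not called. The choice between them was close, with means over the 8 arrays of 7.323 and 7.314. On normal arrays the other probe set was brighter, with means of 7.12 against 4.91 in the OE line and 6.85 against 5.54 in WT. For HSFA2D the brightest was flat and the other was called higher, by 3.85 in the OE line (adjusted p = 0.00567) and 3.45 in WT (adjusted p = 0.0036). The source sequence records of the brightest HSFA2C probe set and the rising HSFA2D probe set are numbered in a run with that of HSFA9. Those of the other HSFA2C probe set and the flat HSFA2D probe set are not. Which transcript each of these probe sets reads was not tested. The synonym HSF11 was given to both HSFA2A and HSFC1B, HSF12 to HSFA2E and HSFB4B, and HSF13 to HSFA1 and HSFC1A, so only the class names are used here. HSF25 was a synonym of HSFA2C alone. When probe sets whose names mark a possible match to several transcripts were left out, 15 genes were called higher in each line, of 39 genes left. HSFA2C and HSFB2B were among the calls lost, because other probe sets then stood for them.

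The lines were then compared directly. Under drought no member was called between OE and WT, in either direction (0.0157% of all probe sets were called higher in OE and 0% lower), and 3 genes had an unadjusted p under 0.05 (7.06% of all probe sets). These were HSFA2C (-0.85), HSFA6B (0.55) and HSFC2A (1.08), all with an adjusted p of 0.694. Under normal conditions again no member was called (0.0157% of all probe sets were called higher in OE and 0.0035% lower), and 6 had an unadjusted p under 0.05 (4.1% of all probe sets). HSFC1B was higher in OE by 0.55 on the log2 scale, while HSFA2C (-0.63), HSFB2C (-0.73), HSP18.0 (-0.56), HSP22.3 (-0.78) and HSP81-1 (-0.51) were on the lower side, none passing the test (adjusted p from 0.893 to 1.00). Before drought, both OE arrays lay below both WT arrays for 19 of the 45 genes, 42.2% (16.4% of all probe sets), and above them for 6, 13.3% (14.6% of all probe sets). Under drought both OE arrays lay below both WT arrays for 5 genes (21.8% of all probe sets) and above them for 5 (18% of all probe sets). The median difference between OE and WT over the 45 genes was -0.14 under drought and -0.25 under normal conditions, against -0.02 and 0.00 over all probe sets. The difference was below 0 for 31 of 45 genes under drought (53.3% of all probe sets) and for 32 of 45 under normal conditions (48.9% of all probe sets), and it passed the test for none of them.

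The drought changes of the lines ran close together. Across the 45 genes the OE change and the WT change correlated with r = 0.967 and rho = 0.925, a description across genes, which are not independent replicates. No member was called for a difference in its change between the lines (0% of all probe sets were called in either direction, and the lowest adjusted p among the members was 0.729), with 2 genes, HSFC2A and HSP22.3, at an unadjusted p under 0.05 (6.71% of all probe sets). HSP22.3 had 5.46 and 5.13 on OE drought arrays against 4.70 and 4.13 on OE normal arrays, and 5.30 and 4.95 on WT drought arrays against 5.0 and 5.40 on WT normal arrays, and the difference between its changes was 0.95. Of the 16 genes called higher in both lines, 8 had a smaller change in the OE line and 8 a larger one.

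**Figure D4:**
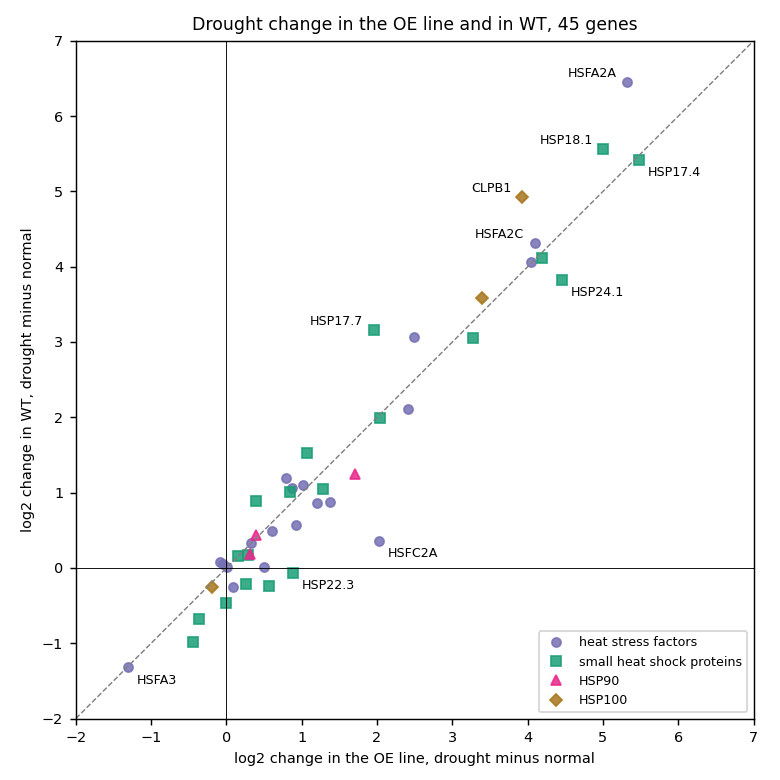
Drought change in the OE line (horizontal axis) against that in WT (vertical axis) for the 45 genes, both as log2 change, drought minus normal, with a dashed line of equal change and marks by subclass. Points follow the dashed line, and HSFC2A (2.02 in the OE line, 0.36 in WT) and HSP17.7 (1.96 in the OE line, 3.15 in WT) lie among the farthest from it.

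For 15 of the 16 genes called higher in both lines, OE drought replicate 2 lay below replicate 1, with a median gap of 0.94 and a range of -0.13 to 2.50, while the median gap over all probe sets was -0.01. The median gap of the same genes was -0.25 in OE normal arrays, -0.11 in WT drought arrays and 0.06 in WT normal arrays. The genes thus moved together from one OE drought array to the other, in a group of only 2 arrays. Their mean was lower in OE than in WT for 15 of the 16 under drought (53.3% of all probe sets) and for 14 of the 16 under normal conditions (48.9% of all probe sets). None of the 16 was called between the lines. These genes were picked by their calls on the same arrays, and their OE drought means include the low replicate 2. For HSFA2A the OE change was 6.18 without OE drought replicate 2 and 4.46 without replicate 1, and for HSP18.1 it was 5.99 and 4.02. In the same order it was 6.18 and 4.77 for HSP17.4, 4.10 and 2.70 for CLPB3, and 2.64 and 1.43 for HSP17.9A.

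Other chaperone genes were set beside the family. Of 12 genes of co-chaperones and other chaperones, 2 were called higher in the OE line (1.6% of all probe sets) and 3 in WT (2.17% of all probe sets). None was called lower (0.836% of all probe sets in the OE line and 5.51% in WT). The median change was -0.07 in the OE line and -0.14 in WT. DJC27, a protein of the J-domain type that works with HSP70, had 9.73 and 8.63 on OE drought arrays against 4.74 and 5.47 on OE normal arrays, and 9.72 and 9.53 on WT drought arrays against 6.29 and 6.60 on WT normal arrays, a change of 4.08 in the OE line and 3.17 in WT. CLPD1, a Clp ATPase of the chloroplast whose Arabidopsis relative responds early to dehydration, changed by 2.26 in the OE line and 3.59 in WT. SGT1, which works with HSP90, was called in WT (1.18) and changed by 0.64 in the OE line. CLPD2 and RAR1 went the other way, by -0.76 and -0.25 in the OE line and by -0.98 and -0.65 in WT. In WT their limma adjusted p was 0.0112 and 0.0318, and both missed 2-fold. Of 14 folding genes of the endoplasmic reticulum, none was called in either line, a count that cannot be told from the shares of all probe sets given above. Their median change was -0.29 in the OE line and -0.31 in WT. Both drought arrays lay below both normal arrays for 9 in the OE line (25.1% of all probe sets) and 11 in WT (27.6% of all probe sets). In WT, BIP1, PDIL2-1 and PDIL5-4 had a limma adjusted p under 0.05, each lower by less than 2-fold. BIP1, the HSP70 of that compartment, changed by -0.44 in the OE line and -0.67 in WT. Among 4 genes known up- or downstream of heat stress factors in plants (DREB2A, DREB2B, APX1 and APX2), none was called. This count, too, cannot be told from the shares of all probe sets. Their median change was 0.25 in the OE line and 0.49 in WT. At an unadjusted limma p under 0.05, 1 of the 4 passed in the OE line (17% of all probe sets) and 3 in WT (35.9% of all probe sets). DREB2A had 6.14 and 5.32 on OE drought arrays against 4.69 and 4.84 on OE normal arrays, and 5.79 and 5.80 on WT drought arrays against 4.94 and 5.21 on WT normal arrays, with adjusted p of 0.076 in the OE line and 0.0731 in WT.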

How the data were processed

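Leaf RNA of OE and WT seedlings, 6 µg per labelling, was hybridised to 8 arrays. The authors deposited log2 values of expression; the submitters' processing notes name RMA and Partek 6.5, and the settings are not given in the sources used here. At equal rank the arrays held values up to 0.414 apart, so they did not share one distribution, and no further normalization was applied. For arrays, their number limits the precision.

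Genes were named through the platform table and the RefSeq table of assembly ASM3414082v1, which gave 1 gene for 22436 probe sets, several for 95 and none for 34663. limma 3.58.1 (R 4.3.3; 4 residual and 4.85 prior degrees of freedom) was fitted to all 8 arrays over 57194 probe sets (187 controls of the array were removed) and was tested on simulated data. Python 3.11.15, numpy 2.4.6, pandas 2.3.3 and matplotlib 3.10.9 made lists and plots. The members, gene lists and tests were chosen with earlier results of these data known. RCAR5 and PRP19, which matched marker names by their first letters alone, were left out after their names were seen. Full values were planned for 5 marker genes, every called member, the 2 brightest genes of each subclass and up to 4 called genes per list; other genes named were chosen after their values were seen.

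Results were recomputed with quantile normalization or median centring; with fits of only those groups that are compared; with probe sets of a mean log2 value above 5; with a trended, robust spread; with replicate numbers as a block; with each array omitted in turn; with the median of all probe sets per gene, or without those that may match more than 1 transcript; and with no fold minimum.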

Additional observations from a re-analysis of the deposited data

How the results depend on the processing

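Counts of genes called between OE and WT, and of genes whose drought change differed between the lines, were 0 under every alternative that was run; the fit of the compared groups alone gives no value for the difference between drought changes. The single gene called lower in WT was HSFA3. That count was 0 with the compared groups alone, with quantile normalization and with the replicate block, and 2 with median centring and with no fold minimum, which added HSP18.8, so that 1 small heat shock protein was then called lower. Among heat stress factors the count called lower in WT was likewise 0 with the compared groups alone, quantile normalization and the replicate block. The 8 heat stress factors called higher in WT were 5 when probe sets that may match more than 1 transcript were left out. The 18 genes called higher in the OE line were 14 with the compared groups alone (without HSFC1A, HSFC2A, HSP17.9A and HSP18.6) and 16 with the trended and robust spread (without CLPB1 and HSP18.6). Leaving out each array in turn gave 11 to 17 genes called higher in the OE line and 15 to 21 in WT, and 0 to 1 called lower in WT. For heat stress factors it gave 5 to 8 higher in the OE line, 7 to 9 higher in WT and 0 to 1 lower in WT. For small heat shock proteins it gave 4 to 7 higher in the OE line, 5 to 9 higher in WT and 0 to 1 lower in WT. For HSP90 and HSP100 it gave 2 to 3 higher in the OE line and 3 in WT. A group left with 1 array was taken to vary like the others. The lowest counts came without OE normal replicate 1 (heat stress factors and small heat shock proteins of the OE line), OE normal replicate 2 (small heat shock proteins of the OE line), OE drought replicate 2 (heat stress factors of the OE line) and WT drought replicate 2 (small heat shock proteins of WT). HSP18.0 reversed with the median over its probe sets, to -0.18 in the OE line and -0.38 in WT. Of 38 called gene changes, 16 kept their call in every setting run; the cause of the other losses was not tested.

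The differences between replicates 1 and 2 correlated between groups at -0.166 to 0.0995 over 6 pairs of groups, so no common effect of replicate number was seen. The labels do not say whether replicates of the same number were grown or processed together, and these values cannot tell. With the replicate block, 17 genes were called higher in the OE line and 20 in WT, and the calls of HSFA3 in WT (adjusted p = 0.0557) and HSFC1A in the OE line (adjusted p = 0.059) were lost. The planned counts of promoter motifs were not run.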
